A study of Mus musculus with 29 samples.

Results

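Dux and 7 further genes of the mouse 2-cell embryo, Zfp352, Tcstv1, Tcstv3, Tmem92, Abcb5, Arg2 and BC080695, were followed through 20 RNA-seq libraries of mouse embryonic stem (ES) cells. They are 8 of the 24394 genes in each count table, which also lists 1180 subfamilies of transposable elements. The 8 genes were picked by name, with their counts in these libraries already known, so their levels and fold changes are given as a description and carry no p-value.

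Dux encodes a double-homeobox transcription factor that switches on a set of genes in the 2-cell mouse embryo, at the time when the zygote's own genome becomes active. In ES cell cultures a small, changing fraction of cells passes through a state in which Dux, its target genes and the endogenous retrovirus MERVL are transcribed, while most cells keep these loci silent. Zfp352 encodes a zinc finger protein, Tmem92 a transmembrane protein, Abcb5 a transporter of the ATP-binding cassette family and Arg2 the mitochondrial arginase. Tcstv1 and Tcstv3 are closely related 2-cell genes that have been linked to telomere length in mouse ES cells.

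All libraries came from ES cells of the 129/Ola strain, grown in serum medium on gelatin with no further treatment, per the labels, and they formed 10 groups of 2 libraries in 4 experiments. The first experiment compared Dax1 knockdown with hairpin sh1 and with hairpin sh2 against its own wild-type control. Dax1 is the common name of Nr0b1, an orphan nuclear receptor of the ES cell network. In the second, a double knockdown of Dax1 and Dux was set against another wild-type control. Libraries labelled Trim66 knockout, KO1 and KO2, were compared with wild type in the next; TRIM66 is a chromatin-associated tripartite motif protein. The fourth compared cells overexpressing a GFP-TRIM66 fusion with cells overexpressing GFP from the empty vector. Chromatin immunoprecipitation, done on 9 more samples, is not used here. No label says that the replicates came from separate cultures, so p-values measure the spread between libraries, which may be technical.

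Libraries held between 12483949 and 17365296 counts, and 3 counts, taken here as the least that a count of 0 allows for, came to between 0.175 and 0.237 CPM (counts divided by library size, scaled by TMM). All 12 ES cell markers were detected in every group. They summed to between 3363 and 5037 CPM in the double knockdown and its control, and to between 6216 and 9756 CPM in the other groups. Nr0b1 fell by 1.17 on the log2 scale with the Dax1 hairpins (SE 0.05, adjusted p = 6.56e-17 in edgeR's quasi-likelihood test), and in the double knockdown it averaged 22.3 CPM, against 41.5 CPM in its control (adjusted p = 0.276, or 0.00716 without control replicate 1 and 3.45e-12 without control replicate 2). The libraries labelled Trim66 knockout had more Trim66 counts than wild type, with 35 and 38 in KO1 libraries, 33 and 48 in KO2 libraries and 11 and 15 in wild-type libraries, so the gene total does not check the knockout. GFP-TRIM66 cells had 3556 and 3267 Trim66 counts, against 27 and 24 in vector cells. Replicates of the double knockdown control stood apart: trophectoderm markers summed to 444 CPM in replicate 1 and 2771 CPM in replicate 2, and Trim66 had 4 and 87 counts. Replicates also differed more than elsewhere in both GFP groups, where Nr0b1 was at 203 and 99.0 CPM in GFP-TRIM66 cells and at 37.1 and 93.8 CPM in vector cells.

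Positions of 6 of the 8 genes were found by symbol in a RefSeq gene table of GRCm38.p6, the assembly that mm10 denotes. Zfp352 lies at chr4:90218820-90225687, Tmem92 at chr11:94777217-94782703, Arg2 at chr12:79130788-79156301 and Abcb5 at chr12:118867486-118966434. Tcstv1, at chr13:119893387-119894785, and Tcstv3, at chr13:120316862-120318261, are separated by 422076 bases. Promoter sequences, from 250 bases before to 50 after the annotated start, were matched by symbol for 2 of the 8 genes, Zfp352 and Abcb5. Both are shown 5′ to 3′ because they were the ones matched. Capitals mark matches to TAATCC, a core bound by paired-type homeobox proteins, and to TATAA, the TATA box core. Zfp352 is on the plus strand at chr4:90218570-90218869 and Abcb5 on the minus strand at chr12:118966372-118966671.
Zfp352: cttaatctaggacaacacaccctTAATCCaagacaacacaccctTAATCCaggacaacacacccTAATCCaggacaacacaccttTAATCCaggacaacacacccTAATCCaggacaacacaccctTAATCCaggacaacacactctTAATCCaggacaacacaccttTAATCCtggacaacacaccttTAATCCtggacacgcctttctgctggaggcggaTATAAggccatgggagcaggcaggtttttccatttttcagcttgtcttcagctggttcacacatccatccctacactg
Abcb5: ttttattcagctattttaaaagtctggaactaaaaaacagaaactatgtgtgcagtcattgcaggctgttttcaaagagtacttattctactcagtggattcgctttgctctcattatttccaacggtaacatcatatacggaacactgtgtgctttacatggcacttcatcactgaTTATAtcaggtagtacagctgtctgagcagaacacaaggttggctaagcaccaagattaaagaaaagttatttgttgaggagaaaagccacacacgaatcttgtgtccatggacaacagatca

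The Zfp352 promoter held 9 copies of TAATCC, all on the gene's strand and spaced through a tandem repeat, followed by 1 copy of TATAA 28 bases before the start. TAATCC was chosen as a motif after the repeat had been seen. Searched on both strands, it occurs in 7.06% of the 32851 RefSeq promoter windows, of which only the Zfp352 window itself held as many as 9 copies. Abcb5 had no TAATCC and 1 TATAA, on the opposite strand, a core present in 24.9% of windows. These are matches of letters within short windows and say nothing of binding.

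**Figure D1:**
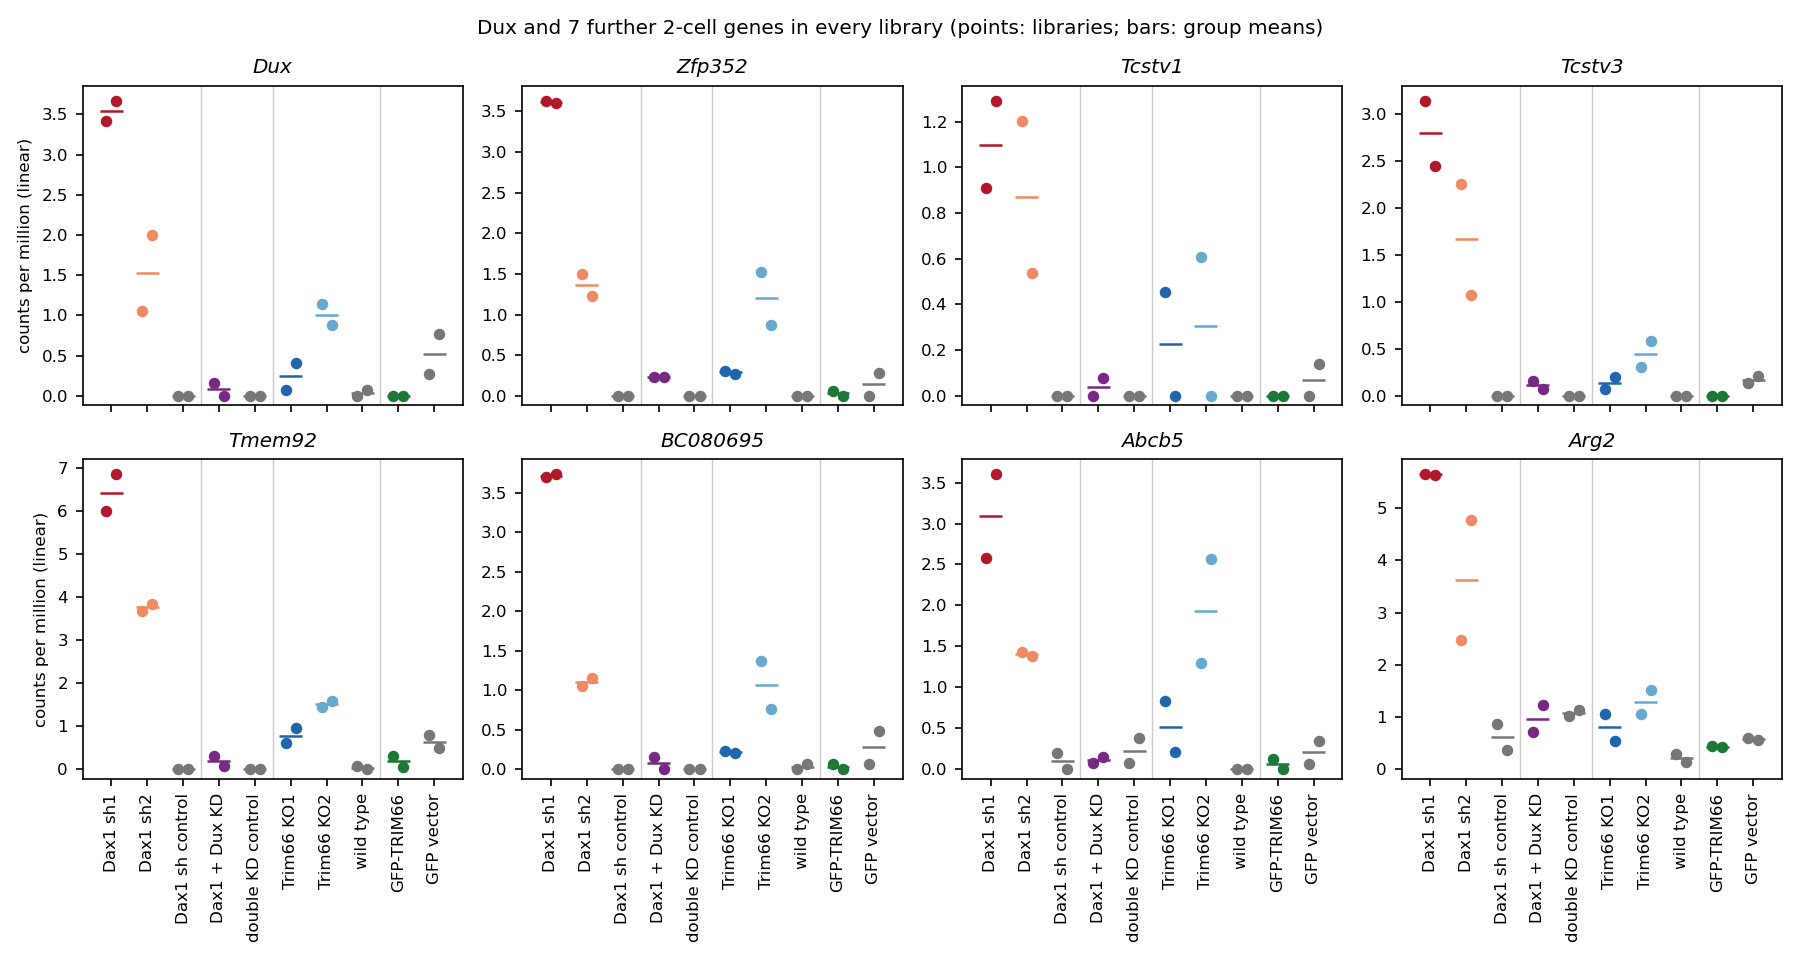
Level of each of the 8 genes in CPM (linear axes) in each of the 20 libraries, by group, with vertical lines between the 4 experiments; points are libraries and short bars are group means. Dax1 sh1 had the highest mean for each of the 8 genes, and the Dax1 control had 0 counts for 6 of them.

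Dax1 knockdown gave the highest levels of all 8 genes. Dux had 49 and 54 counts with sh1 and 14 and 26 counts with sh2, against 0 and 0 counts in the control. Every hairpin library held Dux reads and neither control library held one, so the rise can only be bounded: Dux was at least 24.8-fold higher over both hairpins, counting the control at 3 counts in all. Such bounds are lower where either control library is left out, since the same 3 counts then stand for 1 library. In such bulk RNA, more cells in the 2-cell-like state and more RNA per cell cannot be told apart.

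The same pattern of counts in every hairpin library and none in the control was seen for 5 more of the genes. Zfp352 had 52 and 53 counts with sh1 and 20 and 16 with sh2, against 0 and 0 in the control (at least 24.4-fold higher). Tmem92, which had the most counts of the 8 genes with sh1, had 86 and 101 counts with sh1 and 49 and 50 with sh2, against 0 and 0 (at least 49.5-fold higher). BC080695 had 53 and 55 counts with sh1 and 14 and 15 with sh2, against 0 and 0 (at least 23.7-fold higher). Together these 6 genes had 887 counts in the hairpin libraries and 0 in the control, which is at least 154-fold higher. They were grouped by their 0 control counts, so the bound is partly set by that choice. All 8 genes together gave a ratio of 31.5.

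Tcstv1 and Tcstv3 complete that group of 6. Tcstv3 had 45 and 36 counts with sh1 and 30 and 14 with sh2, against 0 and 0 (at least 21.7-fold higher). Tcstv1 had fewer, 13 and 19 with sh1 and 16 and 7 with sh2, against 0 and 0 (at least 9.53-fold higher). Reads of such near-identical genes can be divided between them by the counting, which is not described, so their sum is the safer value: 58 and 55 counts with sh1 and 46 and 21 with sh2, against 0 and 0.

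Arg2 and Abcb5 differed from the other genes in having reads in the control. Arg2 had 81 and 83 counts with sh1 and 33 and 62 with sh2, against 13 and 5 in the control, a 7.48-fold higher level (95% counting interval 4.64 to 12.8). The rise of Arg2 was 12.9-fold without control replicate 1 and 5.35-fold without control replicate 2. Abcb5 had 37 and 53 counts with sh1 and 19 and 18 with sh2, against 3 and 0, a ratio of 22.0 (7.36 to 108), which was at least 10.5 without control replicate 1 and 11.4 without control replicate 2. Arg2 was the one gene of the 8 with reads in all 20 libraries, and the lowest Arg2 level with a hairpin, 2.48 CPM, was above the 0.869 CPM of the higher control library.

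By edgeR's quasi-likelihood test over 14844 features, 8 of the 8 genes were called higher with the hairpins, where 16.8% of all features were. The hairpin and control libraries did not overlap for any of the 8, where 18.1% of all features were higher without overlap. Nothing is read from either share, since the genes were chosen on such counts. Their summed level was 22.6 ± 8.49 CPM with the hairpins (SD, n = 4) and 0.716 ± 0.501 CPM in the control (SD, n = 2), a ratio of 31.5 (20.5 to 51.1). The SD over both hairpins includes the gap between them, and was 1.29 within sh1 and 0.972 within sh2. The ratio depends on the few control counts: it was 63.3 without control replicate 1 and 21.4 without control replicate 2.

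Other 2-cell genes rose with the hairpins as well. Of 59 other 2-cell genes in the tables, 43 had enough counts to test, and 39 were called higher and 1 lower with the hairpins. Their median log2 fold change was 7.01, against 0.01 over all features tested. Genes near 0 counts in the control, such as Zscan4b with 1 and 1 counts, passed the filter on low counts only through the hairpin libraries. The median and the calls higher are partly set by this filter and are given as a description. Zscan4f, of the Zscan4 family that marks the 2-cell-like state, had 1538 and 1616 counts with sh1 and 531 and 531 with sh2, against 4 and 2 in the control. MERVL-int, the internal part of the retrovirus, rose by 2.87 on the log2 scale (SE 0.05, adjusted p = 1.39e-25), and its long terminal repeat MT2_Mm rose by 2.40 (SE 0.08, adjusted p = 6.92e-19). Primitive endoderm markers summed to 123 and 128 CPM with sh1 and to 123 and 128 CPM with sh2, against 75.8 and 74.6 CPM in the control, and their part in these results was not tested. Of 30 known regulators of the state, 5 were called higher, where 16.8% of all features were, and 13 lower. Over all 14844 features tested, 5138 were called in either direction, 2498 of them higher. Dppa2, an activator of Dux, rose by 0.53 (SE 0.05, adjusted p = 1.27e-09). Sumo2 fell by 0.53 (SE 0.06), Mga by 0.46 (SE 0.05), Rnf2 by 0.31 (SE 0.04), Uhrf1 by 0.29 (SE 0.04) and Ncl by 0.23 (SE 0.03). These are means over hairpins that differed. With sh1 alone Sumo2 fell by 1.03, Mga by 0.72 and Rnf2 by 0.46. In sh2 relative to sh1 these 3 were higher, by 0.99, 0.52 and 0.31. Uhrf1 and Ncl fell with each hairpin, by 0.39 and 0.32 with sh1 and by 0.19 and 0.14 with sh2.

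The hairpins differed in size of effect, and Nr0b1 differed with them, at 77.5 and 77.7 CPM with sh2 and 62.6 and 58.2 CPM with sh1. The 8 genes summed to 14.7 and 16.03 CPM with sh2, against 29.0 and 30.9 CPM with sh1, a ratio of 0.512 (0.454 to 0.576). The libraries did not overlap for 7 of the 8 genes, all lower with sh2, where 32.8% of all features were; Tcstv1 overlapped. BC080695 was lowest relative to sh1, 3.37-fold lower with sh2, followed by Zfp352 at 2.64-fold and Dux at 2.33-fold. Arg2 was 1.56-fold lower and Tcstv1 1.26-fold lower with sh2 than with sh1, and the counting interval of Tcstv1 included 1.

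Of the 8 genes, 5 were called lower with sh2 than with sh1, where 18.2% of all features were: Dux, Zfp352, Tmem92, Abcb5 and BC080695. DESeq2 called 2 lower, and without sh1 replicate 2 edgeR called 3. Other 2-cell genes followed, with 35 lower and 1 higher of 43 tested, and MERVL-int fell by 1.02 (SE 0.05, adjusted p = 6.19e-16). Trophectoderm markers summed to 119 and 118 CPM with sh2 and 494 and 497 CPM with sh1, against 261 and 245 CPM in the control, and fibroblast markers to 22.3 and 21.7 CPM with sh2 and 54.4 and 61.1 CPM with sh1, against 21.5 and 19.6 CPM. Their part in the difference was not tested.

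**Figure D2:**
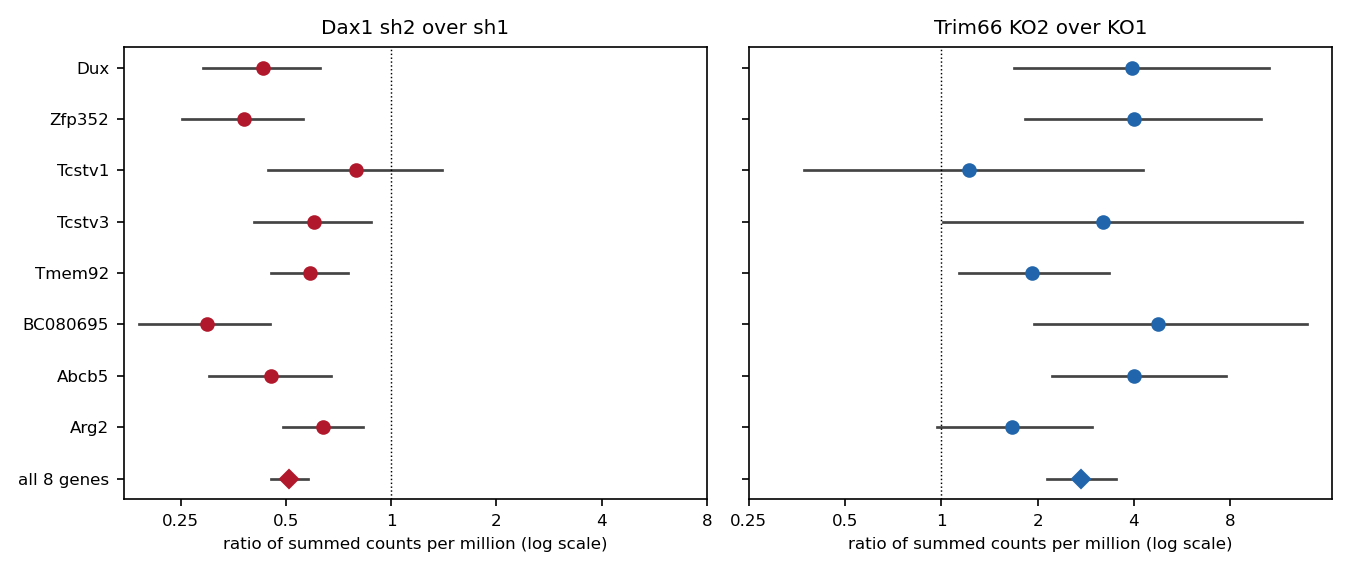
Ratio of the summed CPM (log axes) of each of the 8 genes and of all 8 together, for Dax1 sh2 over sh1 on the left and Trim66 KO2 over KO1 on the right, with 95% exact binomial counting intervals; the dotted line is a ratio of 1. All 8 together were at 0.512 of sh1 with sh2 and at 2.73 times KO1 in KO2, and Tcstv1 was nearest to 1 in both.

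When Dux was knocked down together with Dax1, 7 of the 8 genes had 4 counts or fewer in each double knockdown library. Dux itself had 2 and 0 counts in the double knockdown, against 0 and 0 in the control, so a fall of Dux below its control level was not detectable at this depth. Zfp352 had 3 and 3 counts, against 0 and 0 (at least 2.102-fold higher), and Tmem92 had 4 and 1, against 0 and 0 (at least 1.75-fold higher). The bound of Zfp352 was 1.03 without control replicate 1 and 1.07 without control replicate 2, and was lost without either double knockdown library. That of Tmem92 was 2.84 without double knockdown replicate 2. For Tmem92 no bound above 1 was left without double knockdown replicate 1 or without either control library. Tcstv3 had 2 and 1 counts, Tcstv1 0 and 1 and BC080695 2 and 0, each against 0 and 0, too few for a fold.

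The 6 genes with no control counts held 19 counts in the double knockdown and 0 in its control, at least 6.66-fold higher. Grouping genes by that 0 partly sets this bound, and the sum of all 8 genes is given below. Arg2 was level, with 9 and 16 counts against 14 and 15 in the control (0.906 times the control, 0.509 to 1.60). Abcb5 had 1 and 2 counts, against 1 and 5. Summed over the 8 genes, the double knockdown had 1.82 and 1.84 CPM, against 1.09 and 1.51 CPM, a ratio of 1.41 (0.892 to 2.25). Groups did not overlap for 3 of the 8 genes, all higher in the double knockdown, where 24% of all features were; they were Zfp352, Tcstv3 and Tmem92.

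Arg2 was the one gene of the 8 with enough counts for the test in that experiment, and it was not called by edgeR (0 at an unadjusted p under 0.05, 0 by DESeq2), where 0.104% of all features were called in either direction. Of 17 other 2-cell genes tested, 10 were higher by edgeR at an unadjusted p under 0.05. Nothing is read from the 10, since the share of all features at that threshold was not taken. By adjusted p, edgeR called 0 of the 17 and DESeq2 called 4 higher. The divided control weighs on these counts: 9 of the other 2-cell genes were called higher without its replicate 2 and 13 without its replicate 1. Zscan4f had 40 and 31 counts in the double knockdown, against 12 and 0 in the control. Trophectoderm markers summed to 3351 and 3225 CPM in the double knockdown, against 444 and 2771 CPM, and fibroblast markers to 91.6 and 100 CPM, against 22.7 and 26.9 CPM; their part was not tested.

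Whether the effect of Dax1 knockdown differed from that of the double knockdown was tested as a difference of differences over all 20 libraries. The controls differed, with Nr0b1 at 41.5 CPM in the double knockdown control and 154 CPM in the Dax1 control. The part of this in the comparison was not tested. For the 6 genes at 0 counts in both controls this fit gave no usable standard error. The difference was 2.96 on the log2 scale for Arg2 (SE 0.67) and 5.08 for Abcb5 (SE 1.64). None of the 8 genes was called by edgeR (2 at an unadjusted p under 0.05, 1 by DESeq2), where 0.366% of all features were called in either direction. MERVL-int differed by 1.84 (SE 0.37, adjusted p = 0.0455) and MT2_Mm by 2.06 (SE 0.23, adjusted p = 0.000885). Leaving out any 1 of the compared libraries except replicate 2 of the double knockdown control ended the call of MERVL-int, at adjusted p between 0.0872 and 0.271. The other 2-cell genes called higher numbered 4 of 45 tested, all of the Zscan4 family: Zscan4a, Zscan4b, Zscan4d and Zscan4f. That count was 0 without replicate 1 or replicate 2 of the Dax1 control, replicate 1 of the double knockdown control or replicate 2 of the double knockdown, 2 without replicate 1 of the double knockdown, and 12 without replicate 2 of the double knockdown control.

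Libraries labelled Trim66 knockout showed the 8 genes at lower counts than Dax1 knockdown but above their wild type. Dux had 1 and 6 counts in KO1 and 15 and 15 in KO2, against 0 and 1 in wild type, a ratio of 18.4 over both lines (3.10 to 745). The lower KO1 library was barely above the higher wild-type library, at 0.0757 against 0.0671 CPM. BC080695 followed Dux closely, with 3 and 3 counts in KO1 and 18 and 13 in KO2, against 0 and 1. For both genes the ratio was 9.46 without wild-type replicate 1 and at least 2.93 without wild-type replicate 2, and for BC080695 it was 12.2 without KO2 replicate 1.

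Zfp352 and Abcb5 were at 0 counts in both wild-type libraries. Zfp352 had 4 and 4 counts in KO1 and 20 and 15 in KO2 (at least 7.12-fold higher), and Abcb5 had 11 and 3 in KO1 and 17 and 44 in KO2 (at least 12.4-fold higher). Tmem92 had 8 and 14 counts in KO1 and 19 and 27 in KO2, against 1 and 0 in wild type (ratio 33.8, 5.86 to 1354). Arg2 had 14 and 8 in KO1 and 14 and 26 in KO2, against 4 and 2 (5.13-fold higher, 2.23 to 14.5). Tmem92 was at least 5.80-fold higher without wild-type replicate 1, and 16.1-fold without replicate 2. Arg2 was 7.93-fold higher without wild-type replicate 1 and 3.68-fold without replicate 2. Zfp352 was at least 3.67-fold higher without wild-type replicate 1 and 3.403-fold without replicate 2. Abcb5 was at least 6.395-fold higher without wild-type replicate 1, 5.94-fold without replicate 2 and 7.19-fold without KO2 replicate 2.

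Tcstv1 had 6 and 0 counts in KO1 and 8 and 0 in KO2, and Tcstv3 had 1 and 3 in KO1 and 4 and 10 in KO2, with 0 and 0 counts of each in wild type. Tcstv1 was thus absent from the second library of each line, where Tcstv3 was at its higher count, and the sums of both genes were 7 and 3 in KO1 and 12 and 10 in KO2. Neither gene passed the filter on low counts there.

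Of the 6 genes tested, 6 were called higher in the mean of both knockout-labelled lines, where 12.7% of all features were, and 4 by DESeq2. Without wild-type replicate 1, and likewise without wild-type replicate 2, edgeR called 1. In KO2 alone against wild type all 6 were called higher. In KO1 alone Zfp352, Tmem92 and Abcb5 were called higher, and Dux, Arg2 and BC080695 were not called. Over both lines, groups did not overlap for 7 of the 8 genes, where 18% of all features were higher without overlap. The 8 genes summed to 5.99 ± 3.21 CPM over both lines (SD, n = 4) and 0.313 ± 0.064 CPM in wild type (SD, n = 2), a ratio of 19.5 (10.2 to 43.1). The SD over both lines includes the gap between them, and was 0.581 within KO1 and 0.0137 within KO2. Nr0b1 was not called, at 0.09 on the log2 scale (SE 0.08, adjusted p = 0.466).

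KO2 stood above KO1 for the summed level, at 8.74 and 8.76 CPM in KO2 and 3.63 and 2.81 CPM in KO1, a ratio of 2.73 (2.14 to 3.52). Trophectoderm markers summed to 99.3 and 96.8 CPM in KO2 and 237 and 225 CPM in KO1, against 96.2 and 98.2 CPM in wild type, and primitive endoderm markers to 112 and 114 CPM in KO2 and 66.1 and 65.1 CPM in KO1, against 117 and 122 CPM. Their part in the difference between the lines was not tested. The libraries did not overlap for 7 of the 8 genes, where 30% of all features were higher without overlap, and Tcstv1 was again the exception. BC080695 was 4.74-fold, Zfp352 4.02-fold, Abcb5 4.001-fold and Dux 3.94-fold higher in KO2, whereas Tmem92 was 1.92-fold and Arg2 1.67-fold higher. This order rests on single libraries: the ratio of Dux was 2.41 without KO1 replicate 1 and 13.2 without KO1 replicate 2, and that of Abcb5 was 9.81 without KO1 replicate 1, 2.44 without KO1 replicate 2 and 2.603 without KO2 replicate 2. Arg2 barely separated, at 1.06 and 1.52 CPM in KO2 and 1.06 and 0.548 CPM in KO1. BC080695 and Zfp352 were called, 2 of 6 tested, where 10.1% of all features were called higher. DESeq2 called 0 of the 8, edgeR called 0 without either wild-type library or either KO1 library, and 1 without KO2 replicate 1.

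Among the other 2-cell genes, 27 of 32 tested rose in the mean of both lines and 0 were called lower; 21 rose and 1 fell in KO2 relative to KO1, and 10 rose without either KO1 library. Genes near 0 counts in wild type passed the filter on low counts only through the knockout-labelled libraries, so the calls against wild type are a description. Zscan4f had 69 and 75 counts in KO1 and 348 and 342 in KO2, against 4 and 7 in wild type (log2 fold change 4.81, SE 0.30, adjusted p = 1.39e-05). MERVL-int rose by 0.69 (SE 0.09, adjusted p = 0.000769) and MT2_Mm by 0.41 (SE 0.09, adjusted p = 0.00802), which was not called without wild-type replicate 1 or 2 or KO1 replicate 2 (adjusted p = 0.1, 0.0835 and 0.0613). In KO1 alone against wild type MERVL-int rose by 0.35 and MT2_Mm was not called. In KO2 alone they rose by 1.02 and 0.72. Of the 30 regulators, 4 were called higher in the mean of both lines, where 12.7% of all features were, and 2 lower. Over all 15065 features tested, 3517 were called in either direction, 1910 of them higher. Dppa2 rose by 0.64 (SE 0.09, adjusted p = 0.000807) and Ehmt2 by 0.44 (SE 0.10, adjusted p = 0.00949). L3mbtl2 rose by 0.35 (SE 0.10, adjusted p = 0.0259) and Dppa4 by 0.31 (SE 0.09, adjusted p = 0.0254). In KO1 alone against wild type, Ehmt2 rose by 0.78, L3mbtl2 by 0.74 and Dppa4 by 0.46. In KO2 alone Dppa2 was called higher (0.81), and Ehmt2, L3mbtl2 and Dppa4 were not. KO2 relative to KO1 was at -0.67 for Ehmt2 and -0.76 for L3mbtl2. Rnf2, a Polycomb ubiquitin ligase, fell by 0.73 (SE 0.08, adjusted p = 0.000207), and Ncl, which encodes nucleolin, fell by 0.56 (SE 0.08, adjusted p = 0.00077).

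Overexpression gave the opposite ordering at very low counts. Dux had 0 and 0 counts in GFP-TRIM66 cells, against 4 and 11 in GFP vector cells, at least 5.57-fold lower (ratio at most 0.180). The bound on that ratio was 0.355 without vector replicate 2, 0.353 without GFP-TRIM66 replicate 1 and 0.372 without GFP-TRIM66 replicate 2. Tcstv3 had 0 and 0, against 2 and 3 (at least 1.86-fold lower), a bound that was lost whichever library was left out. BC080695 had 1 and 0, against 1 and 7 (ratio 0.112, 0.00253 to 0.837), and Tmem92 had 5 and 1, against 12 and 7 (ratio 0.283, 0.0927 to 0.738). Single libraries moved both ratios: without GFP-TRIM66 replicate 1 BC080695 was at no more than 0.663 and Tmem92 at 0.0930, without GFP-TRIM66 replicate 2 they were at 0.233 and 0.490, and without vector replicate 1 BC080695 was at 0.0627.

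Counts of the other 4 genes were as low. Zfp352 had 1 and 0 counts in GFP-TRIM66 cells, against 0 and 4 in vector cells, and Abcb5 had 2 and 0, against 1 and 5. Tcstv1 had 0 and 0, against 0 and 2, and Arg2 had 7 and 7, against 9 and 8 (0.420 and 0.439 CPM, against 0.560 and 0.600 CPM). Groups did not overlap for 5 of the 8 genes, all lower in GFP-TRIM66 cells, where 26.2% of all features were; BC080695 was among them by 1 count against 1 count, at 0.0627 and 0.0667 CPM. None of the 8 passed the filter on low counts.

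Summed over the 8 genes, GFP-TRIM66 cells had 1.003 and 0.480 CPM, against 1.93 and 3.29 CPM in vector cells, 3.53-fold lower (ratio 0.283, 0.171 to 0.454). The ratio was 0.186 without GFP-TRIM66 replicate 1 and 0.392 without GFP-TRIM66 replicate 2 or without vector replicate 2. Of 23 other 2-cell genes tested, edgeR called 0 and DESeq2 called 7 lower. By edgeR 18 were lower at an unadjusted p under 0.05. The share of all features at that threshold was not taken, so nothing is read from the 18. MERVL-int was at 130 and 55.0 CPM in GFP-TRIM66 cells, against 125 and 204 CPM in vector cells (log2 fold change -0.83, SE 0.42, adjusted p = 0.368); without GFP-TRIM66 replicate 1 the change was -1.57 (adjusted p = 0.036). Vector cells held more of the 8 genes than any other control group, with 76 counts, against 9 in wild type, 21 in the Dax1 control and 35 in the double knockdown control.

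**Figure D3:**
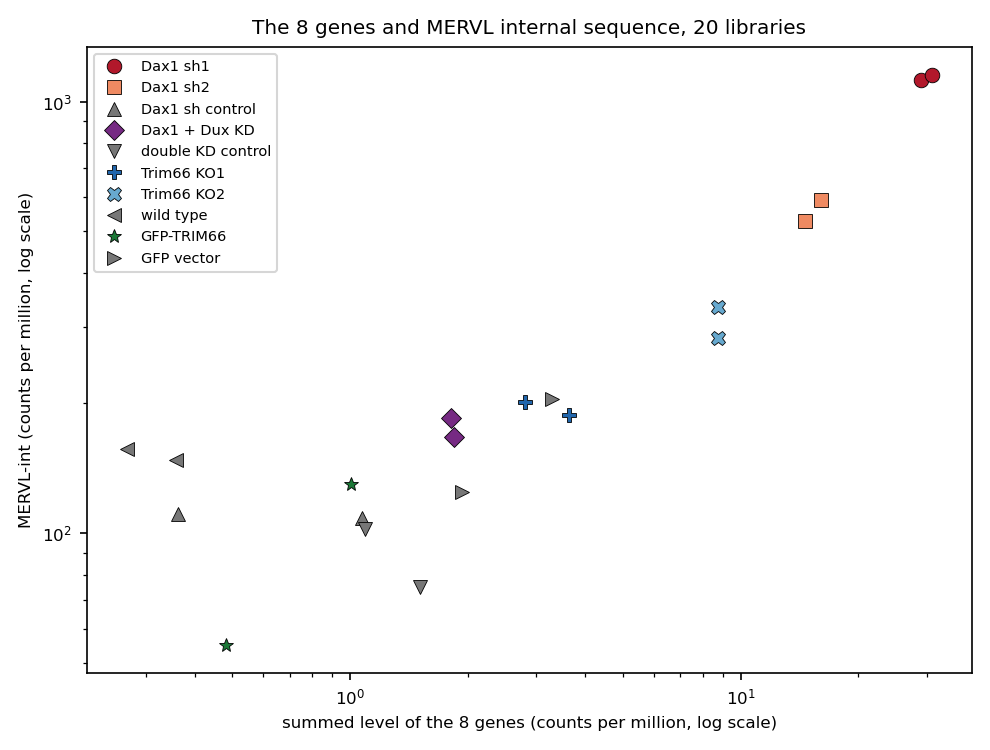
Summed level of the 8 genes against MERVL-int, both in CPM on log axes, with 1 point for each of the 20 libraries. Hairpin sh1 libraries sit at the upper right, with MERVL-int at 1120 and 1150 CPM, followed by sh2 and KO2, while libraries with under about 2 CPM of the 8 genes lie between 55.0 and 185 CPM of MERVL-int.

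Ordered by mean level over the 10 groups, Dux ran from 3.55 CPM with sh1 through 1.53 with sh2, 1.008 in KO2, 0.519 in GFP vector cells, 0.243 in KO1, 0.0790 in the double knockdown and 0.0335 in wild type to 0 in the remaining 3 groups. Each experiment was scaled on its own, so levels across experiments are a rough order. Only sh1 and sh2, and KO2 and GFP vector, were neighbours whose libraries did not overlap. The sh1 group was first for all 8 genes and sh2 second for 7, with Abcb5 higher in KO2 (1.93 CPM) than with sh2 (1.41 CPM), where the libraries overlapped. For Zfp352 and BC080695, sh2 and KO2 also overlapped.

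The make-up of the counts changed with their number. Arg2 took 18.9% of the counts of the 8 genes with sh1 (exact 95% interval 16.3 to 21.6, counting error only) and 23.6% with sh2 (19.5 to 28.0), against 85.7% in the Dax1 control (63.7 to 97.0). It took 53.2% in the double knockdown (38.1 to 67.9), against 82.9% in its control (66.4 to 93.4), and 58.3% in GFP-TRIM66 cells (36.6 to 77.9), against 22.4% in vector cells (13.6 to 33.4). In GFP-TRIM66 cells its share was 43.8% in replicate 1 and 87.5% in replicate 2. Dux took 11.8% with sh1 (9.77 to 14.2), 9.93% with sh2 (7.19 to 13.3) and 11.3% in KO2 (7.77 to 15.8), shares whose intervals overlapped. Abcb5 took 23.0% in KO2 (18.1 to 28.6), 10.3% with sh1 (8.40 to 12.6) and 9.18% with sh2 (6.55 to 12.4). Its share in KO2 was 14.8% in replicate 1 (8.85 to 22.6), whose interval overlaps those of both hairpins, and 29.3% in replicate 2 (22.2 to 37.3).

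**Figure D4:**
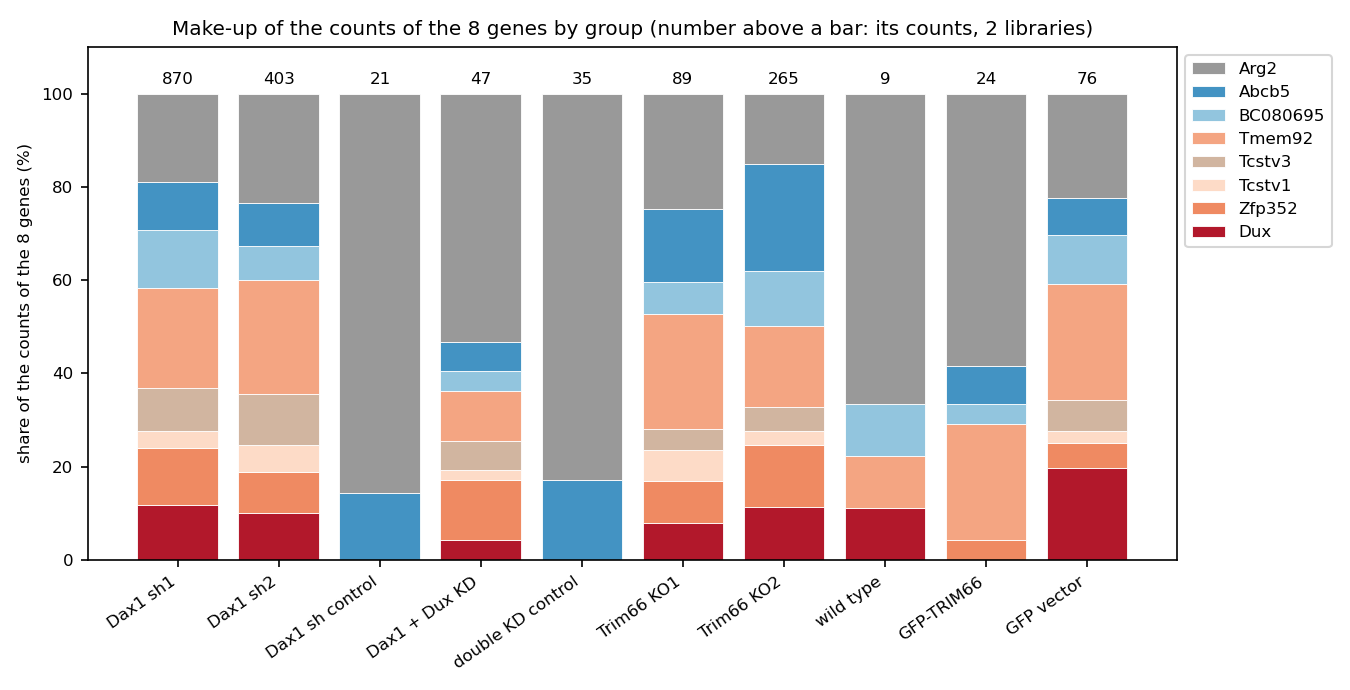
Share of the counts of the 8 genes taken by each gene (percent, stacked) in each of the 10 groups, with the group's counts over its 2 libraries above each bar. Arg2 fills 85.7% of the 21 counts of the Dax1 control and 18.9% of the 870 counts with sh1.

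Across the 20 libraries, after the mean of its own experiment was removed from each log2(CPM + 1) value, the 28 pairs of the 8 genes had Pearson correlations between 0.723 and 0.985. Zfp352 and BC080695 were the closest pair, and Tcstv1 and Abcb5 the loosest. Dux correlated at 0.968 with BC080695 and at 0.947 with Zfp352. These points share libraries and depth, and the same few groups set the spread, so the values are descriptive. Among 17830 genes with 10 or more counts, Gm8300 and Gm1995 were most like the summed level (0.985 each), ahead of Gm20767, Gm8994, Gm2016, Zscan4b, Zscan4a and Zscan4f. Gm4027 was most like Dux (0.970), followed by BB287469 and Pramef25, and Dcc, which encodes a netrin receptor, was most like Arg2 (0.959), followed by Rdh1 and AF067061.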

How the data were processed

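The 20 RNA-seq libraries were read from 4 tables in which the authors deposited raw read counts per gene and per transposable element subfamily (25574 features), per the file headers. Per the submitters' processing notes, tools for the series included Trim Galore, HISAT2 2.1.0 and Cufflinks 2.2.1 with mm10; how reads were counted (tool, annotation, strand, multi-mapping reads) is not given in the sources used here. Overlapping and antisense genes can therefore not be told apart, and near-identical copies may share reads. The 27 features with date-like names stayed in library totals only.

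Each experiment was fitted with edgeR 4.0.16 in R 4.3.3 (filterByExpr, TMM, quasi-likelihood test, prior count 0.125, genes and elements together). P-values were adjusted by Benjamini-Hochberg across every feature of a fit, and features under 0.05 were called. DESeq2 1.42.0 was an alternative. A gene near 0 counts in some groups passes the low-count filter only through the groups where it is high, so list counts among tested genes lean that way. Ratios are of summed counts over summed effective library sizes, with exact binomial 95% intervals that cover counting error only; against a group at 0 the bound uses 3 counts over the group, and with no more than 3 counts in both groups no fold is given. The scripts were tested on simulated data.

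The 8 genes, the lists and the tests were chosen with earlier results of these data known, so they are not independent evidence. Of the listed genes, up to 6 called per comparison with the smallest adjusted p were eligible to be named. Alternatives were other scalings, no filter, genes alone, a replicate block and leaving out each library. Replicate numbers do not pair the samples by any label. Sequences and positions came from RefSeq tables of GRCm38.p6; the promoters of the other 6 genes were not used here.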

Additional observations from a re-analysis of the deposited data

Results flagged for a closer look

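These values differed between groups under the same contrast by edgeR's test of the difference, over the 6 libraries of the experiment or, for the last comparison, all 20. In KO2 relative to KO1, the fitted log2 differences were 2.22 for BC080695, 2.00 for Zfp352, 0.67 for MERVL-int and 0.62 for MT2_Mm. In sh2 relative to sh1 they were -1.75 for BC080695, -1.40 for Zfp352, -1.21 for Dux, -1.13 for Abcb5, -0.77 for Tmem92, -1.02 for MERVL-int and -0.65 for MT2_Mm. For the Dax1 knockdown effect minus the double knockdown effect they were 1.84 for MERVL-int and 2.06 for MT2_Mm. The values of the 5 named genes are descriptions, since these genes were chosen on such counts.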

How the results depend on the processing

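The ratios of the summed 8 genes kept their direction under every scaling and without any 1 library. With the hairpins, 8 of the 8 genes were called higher under every alternative. Leaving out 1 library, which leaves a lone sample that is assumed to vary like the other groups, moved the hairpin ratio between 21.4 and 63.3, and the number of the 8 genes called higher in the knockout-labelled lines between 1 and 6, in KO2 relative to KO1 between 0 and 2, lower in sh2 relative to sh1 between 3 and 6, and higher in the difference of knockdown effects between 0 and 1. Other 2-cell genes called ranged from 10 to 21 higher in KO2, 0 to 2 lower with GFP-TRIM66, 0 to 1 lower with the hairpins, 0 to 13 higher in the double knockdown and 0 to 12 higher in the difference. Over all features the calls ranged from 1239 to 5445 for the knockout-labelled lines, 1012 to 5503 for KO2 relative to KO1, 20 to 663 for GFP-TRIM66, 6 to 4852 for the double knockdown and 5 to 812 for the difference. Low counts limit the single genes. Tcstv1 in sh2 relative to sh1 ranged from a ratio of 0.488 to 1.094 (log2 -1.02 to 0.13), above 1 without sh2 replicate 2; in KO2 relative to KO1 it ranged from 0.586 to 2.86, under 1 without KO1 replicate 2, and was at most 0.814 without KO2 replicate 1. Arg2 in the double knockdown ranged from 0.662 to 1.143 (log2 -0.59 to 0.19), above 1 without double knockdown replicate 1.

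DESeq2 called 0 of the 8 genes in KO2 relative to KO1, 2 lower in sh2 and 1 higher in the difference. It called 7 other 2-cell genes lower with GFP-TRIM66, 0 lower with the hairpins, 4 higher in the double knockdown and 11 higher in the difference, and 550, 215 and 172 features in all for GFP-TRIM66, the double knockdown and the difference. With no filter on low counts, 20 features were called for GFP-TRIM66 and 200 for the difference, among them 1 of the 8 genes and 9 other 2-cell genes. Replicate numbers did not pair the samples: deviations of same-numbered libraries correlated between -0.646 and 0.45. With a replicate block, 6 features were called in the double knockdown and 3 in the difference, with 0 other 2-cell genes, and MERVL-int in the difference lost its call at 1.83 (adjusted p = 0.166). Under the block Abcb5 in KO2 relative to KO1 (1.92) and Arg2 in sh2 relative to sh1 (-0.65) became called. Causes were not tested.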
